A study of Mus musculus with 50 samples.

Results

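The sites described here are regions where the glucocorticoid receptor (GR) was called in inhibitory or excitatory neurons of mouse primary visual cortex (V1) and in which no GR peak of light-reared astrocytes was found. For each neuronal class, overlapping peaks of its 3 libraries were merged, and a merged region with a peak in at least 2 of them was a site. The sites of both classes formed a union of 1597 regions, and the 830 of them that overlapped no peak of any of 5 astrocyte GR libraries are the members. The other 767 neuronal GR sites carried an astrocyte peak. Of the members, 441 were called in inhibitory neurons (InN) alone, 379 in excitatory neurons (ExN) alone and 10 in both classes.

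Binding was profiled by CUT&RUN, in which an antibody directs a nuclease to its target in isolated nuclei so that the DNA beside the bound protein is cut out and sequenced. The in vivo libraries were made from 175000 sorted nuclei of mice at postnatal day 14, each pooled from several animals. InN nuclei came from Slc32a1-Cre;Sun1-GFP fl/fl mice and ExN nuclei from Slc17a7-Cre;Sun1-GFP fl/fl mice, in which Cre in cells that express a vesicular GABA or glutamate transporter turns on a fluorescent tag of the nuclear envelope. Oligodendrocyte nuclei came from Olig2-Cre;Sun1-GFP fl/fl mice. The genotypes are those of the labels, while the study's methods give the Sun1-GFP allele as fl/+. Astrocyte nuclei were labelled by a virus with the GfaABC1D promoter, given at P0-P1, that carried EGFP-KASH with an inactive ΔCre in wild-type mice kept under normal lighting (NR) or dark-reared from birth (DR) and in GR fl/fl mice (GR-con), or with active Cre in GR fl/fl mice (GR-KO). The GR-con and GR-KO mice, like those that gave neurons and oligodendrocytes, were reared normally. The cell types differed in mouse line and labelling as well as in identity, and these cannot be told apart. GR and the nuclear factor I protein NFIA were each profiled in 3 libraries of NR astrocytes, oligodendrocytes, InN and ExN, and GR also in 3 libraries of DR, 2 of GR-con and 2 of GR-KO astrocytes. Mouse 3T3 fibroblasts gave 2 GR libraries for each combination of 50000 or 250000 nuclei with 2 h of vehicle or of 200 nM dexamethasone (DEX), a synthetic glucocorticoid.

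GR is a nuclear receptor that moves into the nucleus when it binds corticosteroid and then binds DNA at glucocorticoid response elements (GREs), or meets DNA through other bound factors such as AP-1, the Fos and Jun dimers. Because it largely uses chromatin that is already open, its sites are known to differ between cell types along with the enhancers of each type. Enhancers of cortical neurons typically hold motifs for AP-1, for MEF2 factors and for basic helix-loop-helix (bHLH) proteins, which bind E-boxes, while nuclear factor I proteins are best known as factors of glia.

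The members are best introduced by their sequences. Each is shown as the summit of its peak with the lowest q and the 50 bp of mm10 to either side, on the plus strand and from the RefSeq copy of that assembly, and is named by the protein-coding gene with the nearest start. Capitals mark matches, on either strand, to the full GRE, its loose form ACANNNTGT, AP-1 (TGACTCA), the E-boxes CAGCTG and CAGATG, MEF2, the NFI half-site TTGGCA, POU (ATGCAAAT), NFY (GATTGG), RFX (GTTGCCA) or CRE (TGACGTCA). The full GRE and MEF2 patterns are degenerate. First are the 3 highest-ranked members called in both neuronal classes, where the rank goes by the number of neuronal libraries with a peak and then by peak height.
Prkg1, chr19:30843433-30843533: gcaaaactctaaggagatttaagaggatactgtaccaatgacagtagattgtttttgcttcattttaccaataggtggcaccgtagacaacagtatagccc
Gm8797, chr3:5860623-5860723: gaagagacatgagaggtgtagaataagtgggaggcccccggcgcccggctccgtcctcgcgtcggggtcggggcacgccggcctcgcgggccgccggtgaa
Esp38, chr17:39846289-39846389: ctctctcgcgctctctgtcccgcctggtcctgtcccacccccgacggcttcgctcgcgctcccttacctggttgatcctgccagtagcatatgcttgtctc
None of these 3 windows held one of the marked motifs. The Prkg1 window lies in an intron, the Gm8797 window between genes, and the Esp38 window inside an annotated ribosomal RNA gene.

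The 3 highest-ranked members called in InN alone are shown next, for comparison with those of both classes.
Rapgef2, chr3:79161535-79161635: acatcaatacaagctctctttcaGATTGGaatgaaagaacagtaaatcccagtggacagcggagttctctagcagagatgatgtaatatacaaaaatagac
Sem1, chr6:6692203-6692303: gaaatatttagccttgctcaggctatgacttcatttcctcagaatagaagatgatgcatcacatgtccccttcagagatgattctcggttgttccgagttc
Gmpr, chr13:45591012-45591112: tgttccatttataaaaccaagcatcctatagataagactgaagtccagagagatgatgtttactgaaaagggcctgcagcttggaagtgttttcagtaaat
The Rapgef2 window holds an NFY match, and the Gmpr window lies in an intron of Atxn1, the gene of ataxin-1. A pair of the highest-ranked members called in ExN alone follow.
Kcnt2, chr1:140339532-140339632: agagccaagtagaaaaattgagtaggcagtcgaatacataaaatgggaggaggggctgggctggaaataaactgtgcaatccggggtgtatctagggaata
Nav3, chr10:109986316-109986416: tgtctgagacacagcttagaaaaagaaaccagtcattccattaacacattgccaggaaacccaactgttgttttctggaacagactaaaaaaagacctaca
The windows of Kcnt2 and Nav3 lie in introns of those genes, which encode a potassium channel and a neuron navigator protein. Neither held a marked motif.

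Most members with a motif stood lower in the ranking. The next windows, chosen after their content was seen, are the highest-ranked InN member with CAGCTG (Magi1), the highest-ranked InN member with AP-1 (Cited2) and a member beside Dlx6, a homeobox gene of inhibitory neurons.
Magi1, chr6:94242420-94242520: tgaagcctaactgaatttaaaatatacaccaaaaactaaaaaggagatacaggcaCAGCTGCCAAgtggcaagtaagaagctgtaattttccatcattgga
Cited2, chr10:17024058-17024158: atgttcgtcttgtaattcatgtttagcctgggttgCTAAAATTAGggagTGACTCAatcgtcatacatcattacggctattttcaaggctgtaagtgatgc
Dlx6, chr6:6862197-6862297: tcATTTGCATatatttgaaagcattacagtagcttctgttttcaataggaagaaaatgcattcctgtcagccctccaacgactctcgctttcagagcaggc
The Magi1 window has an E-box next to an NFI half-site, the Cited2 window has a MEF2 match and an AP-1 match, and the Dlx6 window has a POU octamer. The corresponding windows for ExN are the highest-ranked with AP-1 (Tti1), the highest-ranked with MEF2 (Dusp14) and the member upstream of Slc17a7, which encodes the vesicular glutamate transporter of cortical excitatory neurons.
Tti1, chr2:158012808-158012908: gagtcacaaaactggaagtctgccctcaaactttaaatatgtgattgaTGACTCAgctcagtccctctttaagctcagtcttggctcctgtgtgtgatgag
Dusp14, chr11:84073336-84073436: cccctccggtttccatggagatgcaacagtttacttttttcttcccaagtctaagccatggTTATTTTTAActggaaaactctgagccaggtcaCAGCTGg
Slc17a7, chr7:45162172-45162272: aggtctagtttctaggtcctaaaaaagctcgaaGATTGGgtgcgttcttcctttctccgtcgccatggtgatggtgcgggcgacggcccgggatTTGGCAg
The Dusp14 window holds a MEF2 match and an E-box, and the Slc17a7 window an NFY match and an NFI half-site.

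The members were chosen by the peak calls in the neuronal and astrocyte GR libraries, and the values of these are given as a description. InN replicates 1, 2 and 3 had peaks at 385, 243 and 390 members, out of 2446, 916 and 1534 peaks in all. ExN replicates 1, 2 and 3 had peaks at 410, 14 and 391 members, out of 4563, 61 and 1644. The second ExN library stands apart with so few peaks, and 375 of the 389 members called in ExN rested on replicates 1 and 3 alone. InN members were spread more evenly, with 92 of 451 called in all 3 libraries, 220 in replicates 1 and 3, 77 in replicates 2 and 3 and 62 in replicates 1 and 2. Over both classes, 680 members had a peak in 2 of the 6 neuronal libraries, 132 in 3, 13 in 4 and 5 in 5.

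Sites called in InN were members more often than sites called in ExN, with 59.0% of 765 and 41.6% of 936. Where a library had a peak at a member, its median fold enrichment over background was 5.76, 5.70 and 5.87 in the InN libraries and 5.30, 5.17 and 4.84 in the ExN libraries. At the other neuronal sites the medians were lower in each of these libraries, between 2.92 and 4.00. The best q of a site went the other way, with a median −log10 q of 6.33 at members and 8.55 at the other sites, and members were narrower, with a median width of 151 bp against 183 bp. Members were shorter, with a higher fold and a weaker q, than the sites shared with astrocytes.

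At the edge of the rule, 13 members (1.57%) lay within 500 bp of an astrocyte GR peak, the nearest at 6 bp. On the other side, 110 of the 767 other sites had been set aside because of a peak in only 1 of the 5 astrocyte libraries, 162 had a peak in all 5, and none overlapped by under 10 bp. Most members lay far from any astrocyte peak, at a median distance of 54320 bp, and 435 of 830 (52.4%) lay beyond 50 kb.

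**Figure D1:**
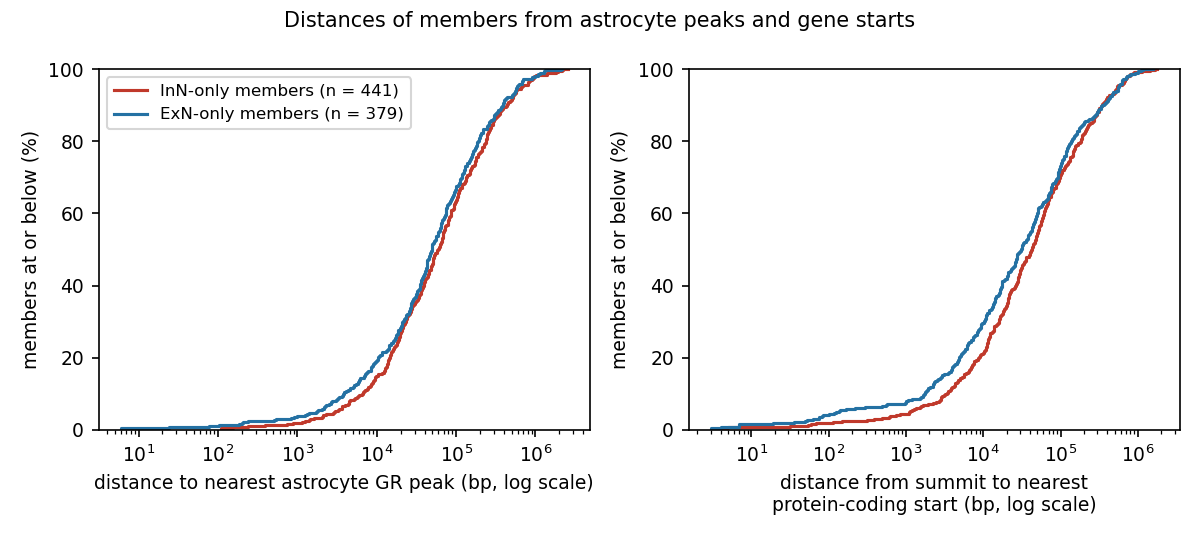
Cumulative share of members (%) against distance to the nearest NR or GR-con astrocyte GR peak (left, bp, log scale) and from the summit to the nearest protein-coding start (right, bp, log scale), for InN-only (red) and ExN-only (blue) members. In the left panel 1.13% of InN-only and 2.11% of ExN-only members lie within 500 bp; the medians are 60233 and 49542 bp on the left and 42482 and 31614 bp on the right.

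Members lay away from promoters. Within 500 bp of an annotated transcript start were 63 members, or 7.59% (95% Wilson interval 5.98 to 9.59), against 664 of the other 767 neuronal sites, or 86.6% (84.0 to 88.8). Introns held 442 members (53.3%), regions between genes 302 (36.4%) and exons 23 (2.77%). The InN-only and ExN-only members had nearly the same makeup, with 53.5% and 53.3% in introns and 36.7% and 36.4% between genes, and their intervals overlapped in every class. Consensus GR sites of NR astrocytes lay in between, with 47% of 12458 at promoters. The intervals cover counting error only and the sites of a set share libraries, so these are descriptions of the lists. The median distance from a member's summit to the nearest protein-coding start was 38244 bp, and 4.58% of members lay within 500 bp of one, against 83.1% of the other sites.

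**Figure D2:**
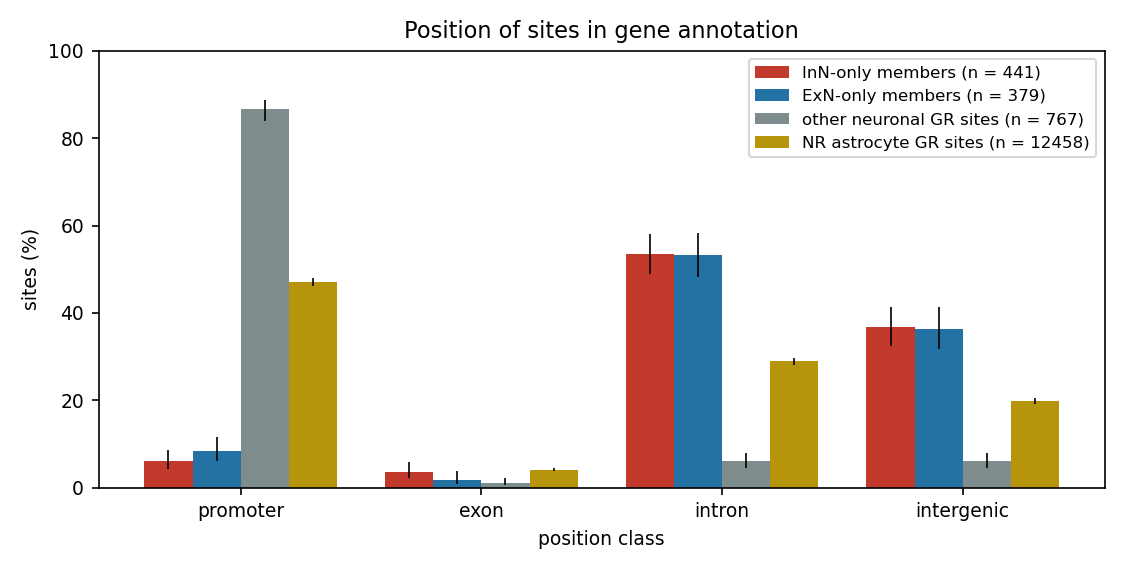
Share of sites (%) by position class for InN-only members, ExN-only members, the other neuronal GR sites and consensus GR sites of NR astrocytes; bars give the share and error bars its 95% Wilson interval. Both kinds of member stand at 6.12% and 8.44% at promoters, where the other neuronal sites reach 86.6%.

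Members also differed in base composition. The windows at their summits held 44.8% ± 7.77 (SD over 830 sites) G and C, close to the 43.3% of windows 1000 bp to either side. At the other neuronal sites the mean was 59.9% ± 8.57 (SD over 767 sites), against 47.2% in their flanks. CpG dinucleotides averaged 1.50 in a member window and 6.86 in a window of the other sites. Repeat-masked bases made up 7.61% of member windows and 25.5% of their flanks.

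Of 19 motifs searched on both strands, several were more frequent in member windows than in their flanks and the other neuronal sites. Among them were AP-1, the E-boxes, MEF2, the loose form of the GRE, the NFI half-site and POU. The GC box and NFY were more frequent in the sites shared with astrocytes. AP-1 stood in 81 member windows, 9.76% (interval 7.92 to 12), against 1.57% of flanking windows, 1.69% of the other neuronal sites and 1.55% of NR astrocyte GR sites. The InN-only and ExN-only members held it at similar shares, 10.2% and 9.23%. Where it occurred, AP-1 lay at a median of 18 bp from the summit. MEF2 stood in 6.63% of members, in 2.47% of flanks, in 0.652% of the other sites and in 0.466% of astrocyte sites, again at like shares in the InN-only (6.80%) and ExN-only (6.33%) members. The E-box CAGATG, of the kind bound by NeuroD and Neurogenin proteins, was found in 17.1% of members, 7.47% of flanks and 4.43% of the other sites.

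The other E-box, CAGCTG, was the only one of the 19 motifs whose intervals in InN-only and ExN-only members did not overlap. It stood in 100 of 441 InN-only members, 22.7% (interval 19.0 to 26.8), and in 26 of 379 ExN-only members, 6.86% (4.72 to 9.86). Flanking windows held it at 3.29% and 4.62%. The split was not particular to members. Of the other neuronal sites, 9.09% (5.96 to 13.6) of 220 called in InN alone held CAGCTG. Of 453 called in ExN alone, 2.87% (1.68 to 4.85) did, again without overlap of the intervals. To compare libraries rather than sites, the share was also taken over all peaks of a GR library that overlapped no astrocyte GR peak, whether or not another library shared them. InN replicates 1, 2 and 3 gave 22.3%, 15.8% and 22.0%, and ExN replicates 1, 2 and 3 gave 7.34%, 0% and 8.37%. The ExN value of 0% rests on 24 peaks. The InN libraries averaged 20.0% ± 3.68 and the ExN libraries 5.24% ± 4.56 (SD, n = 3 each), a difference of 14.8 percentage points, or 12.2 without ExN replicate 2. The same libraries and the same astrocyte lists chose the members, and the comparison was made after the shares had been seen, so it is a description with no test. AP-1 did not separate the libraries in the same way, with 7.54%, 9.87% and 9.60% in InN and 8.03%, 12.5% and 8.98% in ExN.

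No member window at the summit of lowest q held the full GRE, which limits its share to 0.361% when a count of 3 is taken as the limit for a count of 0. The other neuronal sites also gave 0 of 767, and NR astrocyte sites gave 21 of 12458 (0.169%). At the summits of single libraries it stood in 0.242% of 414 peaks on members in ExN replicate 1 and 0.251% of 399 in ExN replicate 3. The other neuronal GR libraries had none there. The loose form was found in 42 members, 5.06% (interval 3.77 to 6.77), against 2.77% of flanks, with 3.85% in InN-only and 6.33% in ExN-only members. It stood in 0.782% of the other neuronal sites and in 2.47% of NR astrocyte GR sites. Outside promoters the loose form was in 5.35% of members and 3.94% of NR astrocyte sites. The intervals there overlapped, at 3.96 to 7.17 and 3.50 to 4.44. The half-site AGAACA was as common at summits (10.8%) as in flanks (9.88%).

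The NFI half-site stood in 11.2% of members and 5.12% of flanks, and more often in ExN-only (14%) than in InN-only (9.07%) members, with overlapping intervals of 10.9 to 17.8 and 6.73 to 12.1. NR astrocyte GR sites held it at 12.5%. The GC box of SP and KLF proteins (GGGCGG) was in 2.89% of members and 35.9% of the other neuronal sites, and NFY in 5.90% and 27.6%. Of the remaining motifs, POU stood in 1.93% of members and 0.602% of flanks, RFX in 3.49% and 1.39%, the homeobox motif TAATTA in 3.86% and 3.31%, and SOX (ACAATGG) in 1 member and 1.75% of flanks. CRE stood in 6 members, NRF1 (GCATGCG) in 8, ETS (CCGGAAG) in 5, CTCF in 3 and EGR (GCGTGGGCG) in none, which allows a share of up to 0.361%.

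Because members and the other sites differed in position, the shares were also taken without promoters. Among the 767 members outside promoters AP-1 stood in 10.0%, against 3.88% of 103 distal sites shared with astrocytes and 2.02% of 6598 distal NR astrocyte sites. MEF2 stood in 6.78%, 2.91% and 0.621%. CAGCTG stood in 22.9% of distal InN-only and 7.49% of distal ExN-only members, in 12.6% of distal shared sites and in 10.6% of distal astrocyte sites. The NFI half-site was in 11.6% of distal members and in 18.8% of distal astrocyte sites.

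**Figure D3:**
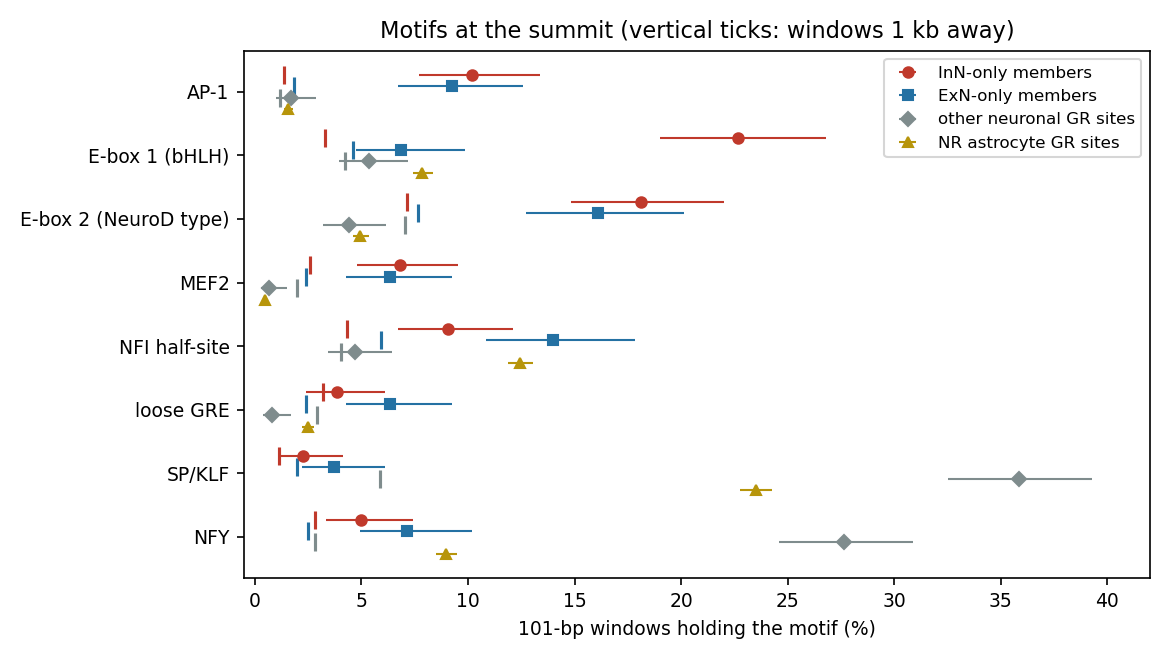
Share of summit windows (%) that hold each of 8 motifs, for InN-only members (circles), ExN-only members (squares), the other neuronal GR sites (diamonds) and NR astrocyte GR sites (triangles), with 95% Wilson intervals; vertical ticks give the share in windows 1000 bp away. E-box 1 is the pattern at 22.7% of InN-only members and 6.86% of ExN-only members; AP-1 and MEF2 are at like shares in both kinds of member and low elsewhere, and SP/KLF is at 2.89% of all members and 35.9% of the other neuronal sites.

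Among the 10 members called in both classes, 3 were fragments of a single ribosomal RNA gene. They lie at chr17:39843216-39846104, chr17:39846224-39846738 and chr17:39847915-39848821, in a locus annotated as Gm26917 and an rRNA gene, with the start of Esp38 over 100 kb away. The widest of them had folds of 3.08, 1.99 and 2.41 in InN and of 1.55 and 1.84 in ExN replicates 1 and 3, below the medians given above, while its best −log10 q of 134 was the highest of any member. These 3 regions also had peaks in every 3T3 vehicle library and in DR astrocytes, and each was called in all 3 NFIA InN libraries. They count among the members because the nearest NR or GR-con astrocyte peak was 426212 bp away, and shares below are also given without them where they carry the value. The members nearest Gm8797 and Axin2 likewise had peaks in 1 DR library, in 3 NFIA InN libraries and in 2 NFIA ExN libraries. The check for ribosomal sequence used only the locus on chromosome 17, so ribosomal sequence absent from that locus was not looked for.

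The highest-ranked of the 10 lay in an intron of Prkg1, a cGMP-dependent protein kinase, with folds of 9.57, 9.46 and 14.3 in the InN libraries and of 10.4 and 6.54 in ExN replicates 1 and 3. Csmd1, which encodes a complement regulatory protein of neurons, had an intronic member with folds of 4.50 and 5.25 in InN replicates 1 and 3 and of 6.15 and 4.87 in ExN replicates 1 and 3. A member in Lrrc8b, a subunit of the volume-regulated anion channel, was called in InN replicates 1 and 2 at 5.31 and 4.14 and in ExN replicates 1 and 3 at 6.40 and 4.64. A member 32412 bp from Sept7, a septin gene, and one in St6galnac3, a sialyltransferase gene, completed the group with those nearest Gm8797 and Trim36, each over 100 kb from that start. None of the 10 had a peak in ExN replicate 2.

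Of the members called in InN alone, 87 had a peak in all 3 InN libraries and 30 also had a peak in 1 ExN library. The highest-ranked lay in Rapgef2, an exchange factor for Rap GTPases, at chr3:79161533-79161680, with folds of 7.53, 6.89 and 5.25 in InN and 7.71 in ExN replicate 3. The second lay at chr6:6692217-6692357 between genes, 113590 bp upstream of Sem1, with 4.52, 7.47 and 8.15 in InN and 6.17 in ExN replicate 3. Magi1, a scaffold protein of cell junctions, had an intronic member with 9.86, 11.2 and 6.32 in InN and 3.46 in ExN replicate 1. Ctnnd2, a catenin of dendrites and synapses, had one with 7.41, 8.61 and 10.0 in InN and no ExN peak.

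Further down, Ifit3, an interferon-induced gene, had a member in an exon with 7.81, 10.6 and 11.2, and a member assigned to Cited2 with 8.21, 10.9 and 9.23 lay 699110 bp from the start of that gene. Both were high in every InN library and had no ExN peak. The member at the start of Lrif1 stood just inside the rule, 241 bp from an astrocyte GR peak, and had an NFIA peak in all 3 astrocyte libraries. The remaining sites of the first 10 were at Gmpr, in an intron of Atxn1, 2839 bp upstream of Dnajb5, a co-chaperone gene, and 68227 bp from Axin2, a regulator of Wnt signalling. Their folds in the InN libraries lay between 1.98 and 7.47. The Axin2 member, with the lowest of these folds, also had peaks in DR astrocytes and in both 3T3 libraries of 250000 nuclei with DEX.

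Of the members called in ExN alone, 7 had a peak in all 3 ExN libraries. Intronic members of Kcnt2, a sodium-activated potassium channel gene, and Nav3 were among them. The Kcnt2 member had 11.1, 6.52 and 7.60 in ExN replicates 1 to 3, and the Nav3 member 6.80, 6.42 and 12.3. Both were called in every ExN library and in no InN library.

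Ptprd, a receptor phosphatase that organises synapses, had a member with 7.79, 4.47 and 5.76, which was 507 bp from an astrocyte GR peak and also had a peak in 1 GR-KO library. A member 4125 bp upstream of Dusp14, a phosphatase gene, was called in all 3 ExN libraries as well, at 6.15, 6.11 and 7.85, and so was one between genes, 1011831 bp from the nearest protein-coding start, that of Cdh9, at 7.13, 7.61 and 4.62. The member in Tti1 and those with the nearest starts at Hace1 and Pcdh9, 617253 and 1568733 bp away, had a peak in InN replicate 2 beside ExN replicates 1 and 3, with ExN folds from 4.15 to 9.42, and the member nearest Xkr4 had one in InN replicate 1. The last of these also had NFIA peaks in 2 InN and 2 ExN libraries.

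Protein-coding gene bodies held 451 of 830 members (54.3%), spread over 411 genes. By count, a selection made after the values were seen, Grip1 held 3 InN-only members, Ptprd 4 ExN-only members and Sel1l2 3. Grip1 encodes a scaffold of AMPA receptors. Genes with 2 InN-only members included Kcnma1, the large-conductance calcium-activated potassium channel, Rbfox1, a neuronal splicing factor, and Magi1, and genes with 2 ExN-only members included Ank2, an ankyrin of the membrane skeleton, and Sorcs2, a sorting receptor. Both an InN-only and an ExN-only member were held by 11 genes, 4.93% of the 223 genes with the former and 5.56% of the 198 with the latter, where 0.904% of all 21911 protein-coding genes held an ExN-only and 1.02% an InN-only member. Gene length was not adjusted for. Among the 11 were Ank2, Ank3, Ctnna2, Dlg2 and Opcml.

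Within 50 kb of a protein-coding start, members were found for 825 of 21911 genes (3.77%), InN-only members for 374 (1.71%) and ExN-only members for 466 (2.13%). Against this background, 7 of 20 genes for voltage-gated channels had a member (35.0%), 4 of 20 pan-neuronal genes (20.0%), 4 of 28 synaptic genes (14.3%), 3 of 25 genes of inhibitory neurons (12%) and 1 of 25 genes of excitatory neurons (4.00%). The length and spacing of genes were not adjusted for. None of 20 astrocyte genes, 12 microglia genes, 12 fibroblast genes, 4 nuclear factor I genes and 12 genes for corticosteroid receptors and their chaperones had a member within 50 kb. The share for excitatory neurons was near that of all genes. At the 3.77% of all genes, lists of 4 to 20 genes would hold few or none, so the empty lists are no result about the members. Dlx5 and Dlx6 had InN-only members alone and Slc17a7 an ExN-only member alone, while the defining genes Gad1, Gad2, Slc32a1, Tbr1 and Neurod6 had none.

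The Dlx5 and Dlx6 genes, homeobox factors of GABAergic neurons, shared 2 InN-only members. The higher-ranked of them, at chr6:6862140-6862268, lay 1087 bp upstream of the Dlx6 start with folds of 5.86 and 7.22 in InN replicates 1 and 3. The member of Slc17a7, 1727 bp upstream, had 2.52 and 4.78 in ExN replicates 1 and 3. Both of these had no peak in replicate 2 of their class or in the other class.

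Among pan-neuronal genes, Nrsn1, a vesicle protein of neurons, had a member in an exon with 8.76, 6.58 and 5.17 in the 3 InN libraries. Rbfox1 and Elavl4, which encode RNA-binding proteins, had InN-only members in introns, with 7.52 and 7.30 and with 4.20 and 4.96 in InN replicates 1 and 3. Map2, a dendritic microtubule protein, had an ExN-only member with 5.37 and 4.46 in ExN replicates 1 and 3. Of the synaptic genes, Rims1, of the release machinery, had an ExN-only member with 4.99 and 6.16 in ExN replicates 1 and 3, Shank2, a postsynaptic scaffold, one with 4.53 and 4.55, and Grin1, the obligatory NMDA receptor subunit, an InN-only member with 5.06 and 6.22 in InN replicates 2 and 3.

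The voltage-gated channel genes had members of either class. Scn1a, the sodium channel of fast-spiking interneurons, had an InN-only member at its promoter, 54 bp upstream of a start, with folds of 6.15 and 11.2 in InN replicates 1 and 3. Scn8a and Cacna1b had intronic ExN-only members with 7.28 and 6.57 and with 6.64 and 6.24 in ExN replicates 1 and 3, and Kcnd3 had one between genes with 6.40 and 5.99. Scn2a and Kcnq3 had ExN-only members too, with 3.95 and 3.08 and with 3.36 and 4.67 in the same libraries.

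Of 20 canonical targets 1 had a member within 50 kb of a start (5.00%), against 3.77% of all genes. It was Zbtb16, with an intronic InN-only member at 6.13 and 6.22 in InN replicates 1 and 3. The body of Zbtb16 also held an ExN-only member. Of 19 clock genes 2 had (10.5%), Arntl at 9.15, 9.49 and 5.42 in the 3 InN libraries and Cry1 at 4.60 and 6.22 in ExN replicates 1 and 3. Of 19 immediate early genes 1 had (5.26%), Fosl2, an AP-1 gene, whose member lay 46052 bp upstream and held an AP-1 match itself. At genes of other cell types there were single members, at Mobp of 16 oligodendrocyte lineage genes (6.25%) and at Acta2 and Cdh5 of 14 endothelial and mural genes (14.3%). Of 20 housekeeping genes 1 had (5.00%), Rpl13a, by the member upstream of Slc17a7. The lists with 1 such gene were near the share of all genes. The Acta2 member lay inside the neighbouring gene Stambpl1.

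Oligodendrocyte GR libraries had no peak at any member, against 6.57% of all neuronal sites with a peak in at least 1 of them. These libraries held 110, 81 and 4 peaks, and 0 of 830 allows a share of up to 0.361% within a library. Members of one neuronal class were also looked up in the other class. Of the 389 members called in ExN, InN replicates 1, 2 and 3 had peaks at 5.14%, 5.40% and 2.06%. Of the 451 members called in InN, ExN replicates 1, 2 and 3 had peaks at 7.32%, 0% and 3.77%. These shares include the 10 members called in both classes, and they are given with no test against oligodendrocytes, because neuronal GR peaks chose the members and the oligodendrocyte lists held few peaks.

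Peaks of DR astrocytes, which the rule did not use, overlapped 6 members (0.723%) against 1.69% of all neuronal sites, and 3 of the 6 were the regions of the ribosomal RNA gene. GR-KO astrocytes, in which the receptor gene was deleted, had peaks at 22 members (2.65%) against 7.33% of all neuronal sites. Of these, 20 were ExN-only members, which is 5.28% of that class, and 2 were InN-only members (0.454%). All but 1 came from GR-KO replicate 2, which had peaks at 21 members out of 413 peaks in all, while replicate 1 had a peak at 1 member out of 1846. The 2 libraries of that genotype thus disagreed at these sites. Among the 22 were a member in Nell2 and one 74616 bp from Rgs4.

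In 3T3 cells, DEX libraries had peaks at 23 members (2.77%) against 9.27% of all neuronal sites, and vehicle libraries at 11 (1.33%) against 3.07%. With 250000 nuclei, DEX replicates 1 and 2 had peaks at 21 and 19 members and vehicle replicates at 5 and 9. With 50000 nuclei, DEX gave 6 and 5 and vehicle 4 and 7. The mean share was 0.843% with vehicle and 2.41% with DEX at 250000 nuclei, and 0.663% under both treatments with 50000 nuclei. Over both, DEX minus vehicle was 0.783 percentage points, with p = 0.222 in the two-sided exact permutation test within nuclei number, where 0.0556 is the smallest possible, and 0.333 after Benjamini-Hochberg adjustment over 9 comparisons. With the 200 peaks of lowest q in each 3T3 library it was -0.181 points. Without the ribosomal RNA gene the 250000 nuclei libraries had 18 and 16 members with DEX and 2 and 6 with vehicle. DEX libraries also held more peaks in all, 5010 and 4654 against 382 and 1035. Members in both DEX libraries of 250000 nuclei included one near Ccn1, a matrix protein gene, one in Ahcyl1 and one in Ptgs1, a prostaglandin synthase gene.

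The NFIA libraries took no part in choosing the members. In InN, ExN and oligodendrocytes, though, the peak names of the GR and NFIA lists give the same IgG control, while those of astrocytes name none. In NR astrocytes, where NFIA lists were longest (27143, 25441 and 22373 peaks), NFIA peaks were present at 29, 18 and 14 members, or 3.49%, 2.17% and 1.69%. They were present at 93.6%, 93.4% and 91.9% of the other neuronal sites. NFIA peaks in any astrocyte library covered 41 members (4.94%) against 48.9% of all neuronal sites. The members were chosen for lacking a GR peak in the same cells, so this contrast is not independent of the rule.

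In InN, NFIA peaks were present at 84, 11 and 56 members (10.1%, 1.33% and 6.75%), and in ExN at 132, 15 and 0 (15.9%, 1.81% and 0%). The last ExN library held a single peak. Any InN library covered 13.4% of members against 18.8% of all neuronal sites, and any ExN library 16.0% against 37.2%. The mean share of members with an NFIA peak was 6.06% ± 4.44 in InN, 5.90% ± 8.71 in ExN and 2.45% ± 0.936 in astrocytes (SD, n = 3 each). Members were chosen for lacking an astrocyte GR peak, and astrocyte NFIA peaks covered most sites with one. The rule thus lowers the astrocyte share, and no test is given. Both neuronal groups overlapped the astrocytes. Their differences from astrocytes turned negative, to -6.17 and -4.36 points, when only astrocyte sites called in at least 2 libraries excluded a region. Oligodendrocytes had NFIA peaks at 0, 4 and 0 members, below all 3 astrocyte libraries, a difference of -2.29 percentage points. The rule lowers the astrocyte share here too, and the oligodendrocyte NFIA lists were far shorter than those of astrocytes. This order therefore cannot be read as a difference in binding, and no test is given. With the 1000 peaks of lowest q in each library the difference was 0.12 points. Any oligodendrocyte library covered 0.482% of members against 9.46% of all neuronal sites.

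The share of members minus the share of the other neuronal sites was also taken within each library, although the other sites had been selected for an astrocyte GR peak. It was -11.0, -0.109 and -0.945 percentage points in the InN NFIA libraries and lay between -91.2 and -90.1 in the astrocyte NFIA libraries. The means differed by 86.5 points, which the choice of sites fixes in large part, so no test is given. With only the 1000 peaks of lowest q in each NFIA library, the difference was 5.42 points.

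NFIA peaks at members were also counted by neuronal class. InN-only members had NFIA peaks in the InN libraries at 16.1%, 1.36% and 11.3%, and in the ExN libraries at 3.63%, 0.227% and 0%. ExN-only members had them in the ExN libraries at 29.0%, 2.64% and 0%, and in the InN libraries at 1.58%, 0.264% and 0.264%. The other neuronal sites had them at 21.1%, 1.43% and 7.69% in InN and at 60.0%, 7.95% and 0% in ExN. Only InN replicate 3 had a higher share at the members of its own class than at the other sites. The share at InN-only minus the share at ExN-only members averaged 8.90 ± 6.97 points in InN and -9.27 ± 14 points in ExN (SD, n = 3 each), and all 3 InN libraries were above all 3 ExN libraries. The difference of 18.2 points gave p = 0.1 in the exact permutation test, the smallest possible, and 0.18 after adjustment, and with the 1000 peaks of lowest q in each library it was 9.67 points. This comparison was added after the values had been seen. The lists of both antibodies in a class name 1 IgG control, and the part of this in the result was not tested. Fewer nuclei with a bound site and weaker binding per nucleus cannot be told apart in these bulk libraries.

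**Figure D4:**
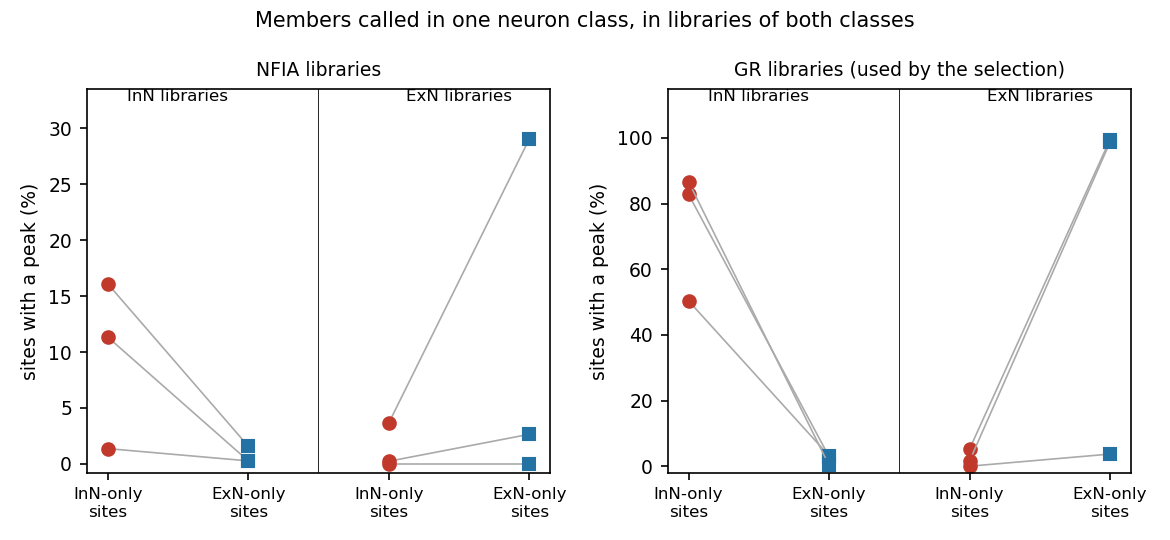
Share of InN-only (circles) and ExN-only (squares) members with a peak (%) in each InN and ExN library, for NFIA (left) and GR (right, used by the rule); lines join the values of a library. NFIA of InN reaches 16.1% of InN-only and 1.58% of ExN-only members, and NFIA of ExN 3.63% and 29.0%, while the ExN library with a single peak stays at 0% of both.

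Members with and without an NFI half-site at the summit were compared within libraries, with no one order. In ExN replicate 1, 39.6% of 53 ExN-only members with a half-site had an NFIA peak, against 27.3% of 326 without. In InN replicate 1 the values for InN-only members were 20.0% of 40 and 15.7% of 401, and in InN replicate 3 they were 15.0% and 11.0%. In ExN replicate 2 the order was opposite, with 1.89% and 2.76% of ExN-only members, as it was in ExN replicate 1 and astrocyte replicate 1 for InN-only members, with 2.50% and 3.74% in each, and in astrocyte replicate 2 for ExN-only members, with 1.89% and 2.76%. These are shares over sites within single libraries and were not tested.

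**Figure D5:**
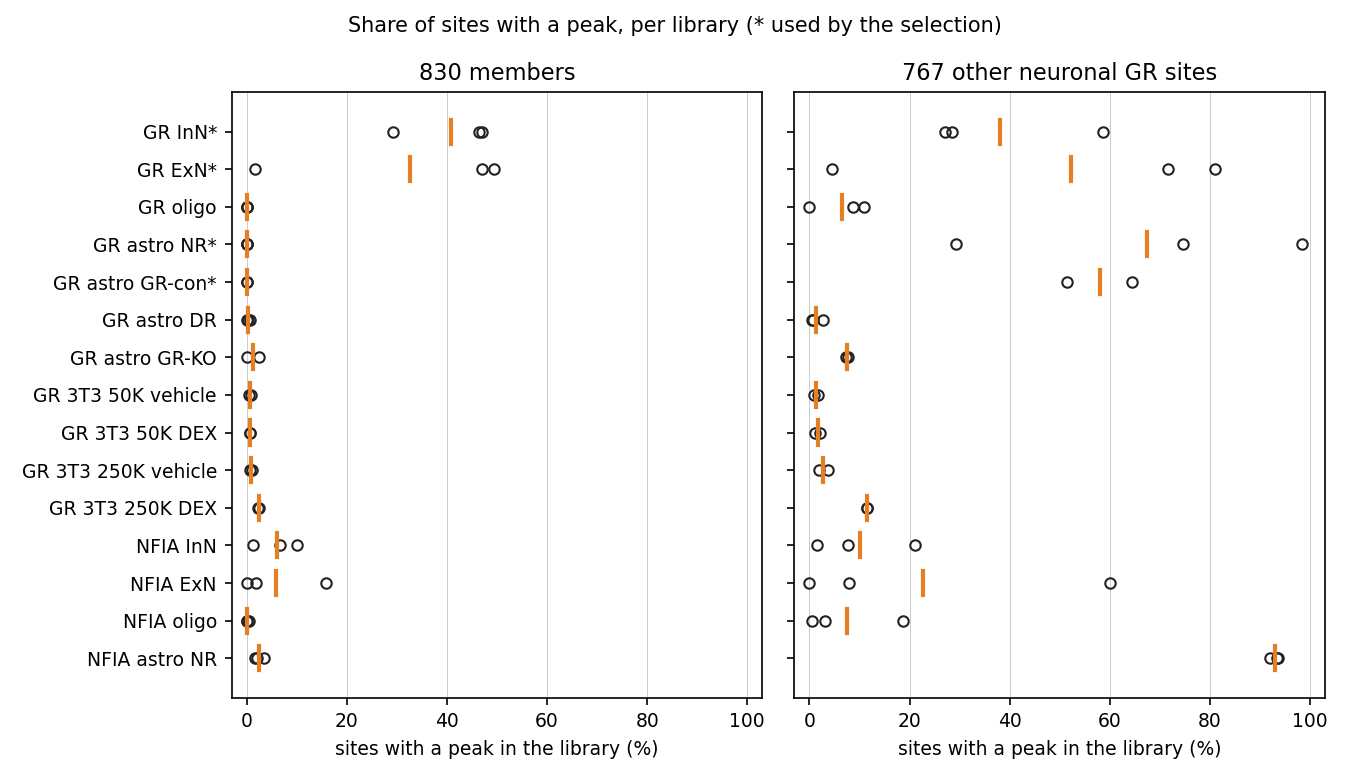
Share of the 830 members (left) and of the 767 other neuronal GR sites (right) with a peak (%) in each library (circles), by group; orange bars are group means and asterisks mark groups used by the rule. Outside the neuronal GR groups each library has peaks at a small share of members, at most 15.9% for NFIA in ExN. The other sites reach 93.6% for NFIA in astrocytes.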

How the data were processed

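CUT&RUN peak lists of 39 of 50 samples were used, 27 for GR and 12 for NFIA; the remaining 11 (IgG, and GR in nuclei without GFP) are not analysed here. Per the labels and the methods of the study, adapters were cut with cutadapt and reads mapped with Bowtie2 (mm10). Picard took out duplicates, SAMtools and deepTools selected reads by mapping quality and fragment length, and MACS2 compared each library with IgG to call its peaks. Each peak deposited by the authors has a score, a fold enrichment (a ratio), a −log10 p, a −log10 q and a summit. The highest q was 0.00999 in the in vivo lists and 0.0498 in the 3T3 lists, so the 3T3 lists are looser. The lists give no read depth, so intervals are given for shares of sites only.

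From these lists, peaks of a group that overlapped by at least 1 bp were merged, and a site needed a peak in 2 libraries. Members had no overlapping peak in the 3 NR and 2 GR-con astrocyte lists. Transcripts of GENCODE M21 placed each site, in this order, in a promoter (500 bp or less from a transcript start), exon, intron or between genes. GRCm38.p6 is the mm10 assembly. Sequences came from the RefSeq copy of GRCm38.p6, and no peak lay beyond the end of its chromosome. Motifs were counted within 50 bp of the summit and in windows 1000 bp away. All 281 genes of 16 lists were found. A member was counted as ribosomal where at least 50% of its 21-base words occurred in the rRNA locus on chromosome 17.

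The library was the unit of each test, a two-sided exact permutation test, with Benjamini-Hochberg adjustment over 9 comparisons, 2 of them added later, and a threshold of 0.05. With 3 libraries against 3 no p under 0.1 is possible, and the 3T3 design allows none under 0.0556, so no comparison could pass. Of the 9, only DEX minus vehicle and NFIA by neuronal class are given with a p, because the choice of members fixes the others in part. Replicates are those of the labels, and p-values measure the spread between these samples, which may in part be technical. Named sites are the first 10 of each class by the number of the 6 neuronal GR libraries with a peak and then by the mean percentile of fold enrichment within a library, and up to 4 genes of each list with a member within 50 kb. Further genes are named as chosen afterwards. Some sites and genes that this rule takes are not reported here. The members, gene lists and tests were chosen with earlier results of these data known. The merging, tests and motif search were tested on simulated data. Alternatives were stricter or looser calling, overlap and exclusion, equal peak numbers, replicate block and leaving out each library. Python 3.11.15, numpy 2.4.6, scipy 1.17.1 and matplotlib 3.10.9 were used.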

Additional observations from a re-analysis of the deposited data

How the results depend on the processing

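The number of members depended on the calling. It was 830 as reported, 99 where a site had to be called in all 3 libraries of its class, 385 with neuronal peaks of −log10 q of at least 4, and between 460 and 929 when 1 neuronal, NR or GR-con library was left out, with the lowest value without ExN replicate 1 and the highest without NR astrocyte replicate 3. No design here allows a p under 0.05, so p-values say nothing of stability. Over 223 alternatives of the 9 differences, 213 kept the direction and 10 reversed it. Some could not reverse, because a replicate block keeps the value and oligodendrocyte GR libraries had no peak at members. The count is therefore no measure of stability. InN minus astrocyte NFIA share became -6.17 points when only consensus astrocyte sites excluded a region and ran from -2.83 to 8.19 with 1 library left out, the lowest without NR astrocyte replicate 3. ExN minus astrocyte NFIA share became -4.36 under the same exclusion, and ran from -2.22 to 6.41 with 1 library left out, where 4 of 17 settings were negative: without NR astrocyte replicate 3, ExN GR replicate 1 or 3, and ExN NFIA replicate 1 (-1.55). Oligodendrocyte minus astrocyte NFIA share was 0.12 points with 1000 peaks per library. DEX minus vehicle was -0.505 points where a site had to be called in all 3 libraries and -0.181 with 200 peaks per 3T3 library. The causes were not tested. The remaining ranges with 1 library left out were -9.15 to -1.77 points (oligodendrocytes), 82.5 to 90.0 (members minus other sites), 1.88 to 7.53 and 2.78 to 5.63 (members of one neuronal class), 0.512 to 0.904 (DEX), 10.1 to 22.8 (NFIA by class) and 12.2 to 16.9 (CAGCTG). Without the ribosomal members, chosen after seeing the data, 827 remained and no direction changed. With replicate numbers as a block, the differences keep their values, from -2.29 to 86.5 points. The exact permutation p was 0.25 for NFIA by class, the smallest possible for 3 pairs, and 0.375 for DEX with 4 pairs. The numbers did not pair the libraries, with correlations of deviations between -0.241 and 0.240 over 25 pairs of libraries. Within 100 bp of the summit CAGCTG stood in 37.0% of InN-only and 11.3% of ExN-only members and AP-1 in 16.5% of members, and promoters of 2000 bp either side held 14.7%. Within 10 kb of a start, 10.0% of channel genes, 4.00% of inhibitory neuron genes and 3.57% of synaptic genes had a member, against 1.08% of all genes.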

Other observations

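The X chromosome held 3 of the 830 members, or 0.361% (95% Wilson interval 0.123 to 1.06), all of them ExN-only. Of the other 767 neuronal GR sites it held 11, or 1.43% (0.803 to 2.55).

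At least 1 of 8 motifs (AP-1, both E-boxes, MEF2, the NFI half-site, POU, NFY and RFX) stood in 458 members (55.2%), in 60.5% of InN-only and 49.9% of ExN-only members, and at least 2 of them in 14.8% of members. Of the other neuronal GR sites 41.2% held at least 1 and 5.48% at least 2. In the 27 ExN-only members with NFY the match lay at a median of 9.5 bp from the summit, and in the 22 InN-only members at 23.5 bp.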
